A study of Mus musculus with 60 samples.

Results

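The genes described here are 10 immediate early response genes, Fos, Fosb, Jun, Junb, Egr1, Atf3, Ier2, Nr4a1, Dusp1 and Zfp36. They were taken by symbol from a colon count table of 27179 genes, and all 10 were in the table and passed the filter on low counts, with 18057 genes tested. RNA was sequenced from mid-colon of 60 male DBA/1 mice, with 5 naïve mice and 5 mice with collagen-induced arthritis (CIA) at each of 6 times 4 h apart, ZT0 to ZT20, where ZT0 is lights on and ZT12 is lights off. CIA mice were immunised at 9 to 10 weeks with bovine type II collagen in Complete Freund's adjuvant, received a collagen boost on day 21, and were sampled 7 days after symptoms appeared. Naïve mice were sampled at the same times and did not have arthritis, so the collagen, the adjuvant and the arthritis cannot be told apart. Each library was made from a 5 mm section holding all layers of the gut wall, and each mouse gave 1 library at 1 time, so that time of day was compared between mice.

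Immediate early genes are switched on within minutes of a stimulus such as a growth factor, stretch, stress or a cytokine, without the need for new protein. Kinase cascades that start at the cell surface activate factors already bound at their promoters, among them SRF with its ETS partners at the CArG box and CREB at the cAMP response element (CRE), and many of the resulting mRNAs and proteins are short-lived. In the gut they respond to feeding, to luminal contents and to tissue handling, and several of their products restrain the same signal that induced them.

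Fos and Fosb encode partners of the Jun proteins, and Jun and Junb encode the proteins they pair with, in the dimeric transcription factor AP-1. Egr1 encodes a zinc finger transcription factor, Atf3 a stress-induced factor of the ATF/CREB family, Nr4a1 an orphan nuclear receptor and Ier2 a nuclear protein of the immediate early class. Dusp1 encodes a phosphatase that switches off the MAP kinases, and Zfp36 encodes tristetraprolin, which speeds the decay of AU-rich cytokine mRNAs.

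RefSeq promoter sequences (GRCm38.p6, the build the reads were aligned to) were found for 8 of the 10 genes. The 250 bases upstream of 1 start of each gene were searched. The CRE (TGACGTCA), its first 5 letters (TGACG, the short CRE), the AP-1 site (TGACTCA), the CArG box and the EGR site (GCGTGGGCG) were searched on both strands. The full CRE was found in 1 of the 8 promoters, that of Dusp1, against 1.55% of 32851 mouse promoters. The short CRE, which overlaps the full one, was found in 6 of the 8 (Fos, Fosb, Junb, Atf3, Nr4a1 and Dusp1), against 17.8% of all promoters. The CArG box was found in Zfp36, against 1.47%. No match to the AP-1 site (4.46% of all promoters) or the EGR site (0.536%) lay in these windows. The upstream sequences of these 8 genes follow, 5′ to 3′ on the strand of the gene, because they let the regulatory letters of the group be read side by side. Capitals mark CRE, short CRE or CArG box letters, and Jun, which held none of the motifs, has no capitals. The windows are chr12:85473640-85473889 on the plus strand for Fos, chr7:19310046-19310295 on the minus strand for Fosb, chr15:101266596-101266845 on the plus strand for Nr4a1, chr17:26508473-26508722 on the minus strand for Dusp1, chr4:95052223-95052472 on the minus strand for Jun, chr1:191183334-191183583 on the minus strand for Atf3, chr8:84978749-84978998 on the minus strand for Junb and chr7:28379229-28379478 on the minus strand for Zfp36. The Nr4a1 window lies inside the annotated span of the gene, chr15:101253902-101274795, and the Fosb window overlaps that of Fosb, which ends at 19310118. For these 2 genes the start used is thus not the outermost one. The sequences are those of the reference genome and not of DBA/1.
Fos: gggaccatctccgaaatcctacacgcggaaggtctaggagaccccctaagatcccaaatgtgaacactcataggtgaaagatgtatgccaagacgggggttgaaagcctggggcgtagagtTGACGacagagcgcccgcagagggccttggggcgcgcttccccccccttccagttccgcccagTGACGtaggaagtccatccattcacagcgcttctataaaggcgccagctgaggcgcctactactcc
Fosb: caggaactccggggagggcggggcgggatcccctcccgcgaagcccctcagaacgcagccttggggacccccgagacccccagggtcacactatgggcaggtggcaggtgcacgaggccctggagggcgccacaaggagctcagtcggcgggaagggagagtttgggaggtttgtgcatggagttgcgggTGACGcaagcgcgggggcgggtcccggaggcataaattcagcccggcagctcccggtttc
Nr4a1: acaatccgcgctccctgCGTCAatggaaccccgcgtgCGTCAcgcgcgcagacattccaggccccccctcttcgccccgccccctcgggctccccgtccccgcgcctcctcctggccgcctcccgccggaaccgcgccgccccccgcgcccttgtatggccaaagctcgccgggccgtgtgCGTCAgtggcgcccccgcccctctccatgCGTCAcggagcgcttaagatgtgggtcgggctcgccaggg
Dusp1: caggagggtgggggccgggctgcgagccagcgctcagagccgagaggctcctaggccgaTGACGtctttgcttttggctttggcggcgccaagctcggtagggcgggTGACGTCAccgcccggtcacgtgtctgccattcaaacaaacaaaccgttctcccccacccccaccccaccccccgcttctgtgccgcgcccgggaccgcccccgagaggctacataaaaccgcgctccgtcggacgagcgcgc
Jun: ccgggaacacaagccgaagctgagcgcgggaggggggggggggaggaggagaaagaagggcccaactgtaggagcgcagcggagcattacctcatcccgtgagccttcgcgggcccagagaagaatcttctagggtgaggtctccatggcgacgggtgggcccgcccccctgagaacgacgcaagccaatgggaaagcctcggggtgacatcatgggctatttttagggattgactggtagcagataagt
Atf3: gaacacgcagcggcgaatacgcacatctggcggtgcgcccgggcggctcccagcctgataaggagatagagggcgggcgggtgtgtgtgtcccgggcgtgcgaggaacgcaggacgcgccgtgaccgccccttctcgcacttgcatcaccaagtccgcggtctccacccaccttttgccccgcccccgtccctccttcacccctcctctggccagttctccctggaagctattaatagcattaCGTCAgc
Junb: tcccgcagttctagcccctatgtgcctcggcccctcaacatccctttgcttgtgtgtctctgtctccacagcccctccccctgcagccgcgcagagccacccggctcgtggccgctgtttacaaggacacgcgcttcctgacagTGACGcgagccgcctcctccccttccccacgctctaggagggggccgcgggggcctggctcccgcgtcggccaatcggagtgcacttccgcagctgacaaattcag
Zfp36: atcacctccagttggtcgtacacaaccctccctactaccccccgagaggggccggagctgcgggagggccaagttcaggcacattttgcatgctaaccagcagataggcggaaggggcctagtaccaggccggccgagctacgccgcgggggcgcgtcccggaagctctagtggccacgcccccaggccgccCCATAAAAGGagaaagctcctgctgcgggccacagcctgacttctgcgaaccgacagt
Nr4a1 held the short CRE at 4 places, the nearest ending 36 bases before the start used for its window, Fos at 2 places and Fosb at 1. A match is a run of letters only, and no binding was measured.

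Library totals ran from 25840240 to 61425974 counts, with medians of 43267100 in naïve and 45528580 in CIA mice. The colonic epithelial markers Epcam, Krt20 and Cdx2 were well above 0 in all 60 libraries, with lowest values of 1058, 734 and 91.8 counts per 1000000 (CPM). Both replicate 4 libraries of ZT4 went against their labelled time or group by their clock genes. In the naïve one, Arntl, which encodes the clock activator BMAL1, stood at 12.03 CPM against 53.9 to 70.3 in the other 4 mice, and Dbp, an output of the clock, at 84.2 against 4.03 to 10.95. In the CIA one, Arntl stood at 72.6 CPM against 28.7 to 41 and Dbp at 3.10 against 13.9 to 27.8. Without both, the same number of immediate early genes passed the test for treatment, and Fos, Fosb and Egr1 in naïve and Fos, Fosb and Zfp36 in CIA mice still passed that for time of day, while a 24 h rhythm of Ier2 in CIA mice was added to the calls (adjusted p = 0.0279). The libraries naïve ZT0 replicate 5 and CIA ZT12 replicate 2 carried the most skeletal muscle RNA, with a mean log2 CPM over 8 marker genes of 3.29 and 5.24, against medians over all libraries of -0.55 for naïve animals and -0.11 for CIA animals, and results that changed without them are given below.

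The 10 genes spanned a wide range of levels. On the scale of CPM per kilobase of exon, over 60 mice, Fos stood highest at 72.6 ± 32.1 (SD), followed by Ier2 at 57.6 ± 7.98, Jun at 51.5 ± 13.4, Junb at 47.8 ± 13.1, Zfp36 at 31.9 ± 7.27 and Atf3 at 22.9 ± 8.58. Nr4a1 at 8.27 ± 4.54, Dusp1 at 7.74 ± 2.75, Egr1 at 6.59 ± 4.14 and Fosb at 1.66 ± 1.12 formed the low end. Between neighbours in this order the mean ± SD ranges overlapped, except between Atf3 and Nr4a1. Even the lowest value, Fosb in CIA ZT8 replicate 4, rested on 54 counts, and the median Fosb library held 360 counts. In the RefSeq annotation of GRCm38.p6, Jun lies at chr4:95049036-95052222 on the minus strand, Atf3 at chr1:191170296-191183333 on the minus strand and Ier2 at chr8:84661331-84662852 on the minus strand. In GENCODE the spans of Jun, Junb, Atf3, Dusp1 and Zfp36 overlap annotated genes on the opposite strand, and that of Dusp1 also on its own strand, and the strand setting of the counting is not given in the sources used here.

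The mice differed most in 3 of the 4 genes that stood lowest. Fosb ran from 1.21 CPM in CIA ZT8 replicate 4 to 28.8 CPM in CIA ZT16 replicate 4, a range of 23.9-fold over 60 mice. Nr4a1 spanned 13.7-fold and Egr1 13.7-fold, and both were highest in naïve ZT0 replicate 5, at 95.9 and 123 CPM. Ier2, by contrast, spanned 2.14-fold, from 57.1 to 122 CPM.

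Fosb had the largest swing by time of day. In naïve mice the 5 values at ZT8 were 3.84, 3.14, 3.29, 6.36 and 1.97 CPM, and at ZT16 they were 14.4, 13.6, 21.9, 12.8 and 19.6 CPM. In CIA mice they were 2.65, 6.67, 6.62, 1.21 and 3.27 CPM at ZT8, and 9.21, 22.5, 15.8, 28.8 and 26.8 CPM at ZT16. All ZT16 mice were above all ZT8 mice of their treatment, but these times were picked as those with the highest and lowest means. The share of all genes whose picked times do not overlap was not computed, here or for the genes below. The means were 3.72 ± 1.63 and 16.5 ± 4.05 CPM in naïve mice (SD, n = 5), a fold of 4.43, and 4.08 ± 2.46 and 20.6 ± 8.09 CPM in CIA mice, a fold of 5.05. The level differed between times of day in naïve mice (edgeR quasi-likelihood F test over the 6 times, adjusted p = 3.68e-04) and in CIA mice (adjusted p = 0.0016). In whole tissue, fewer cells of a type that holds an mRNA and less of it per cell cannot be told apart, here and in every result below.

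**Figure D1:**
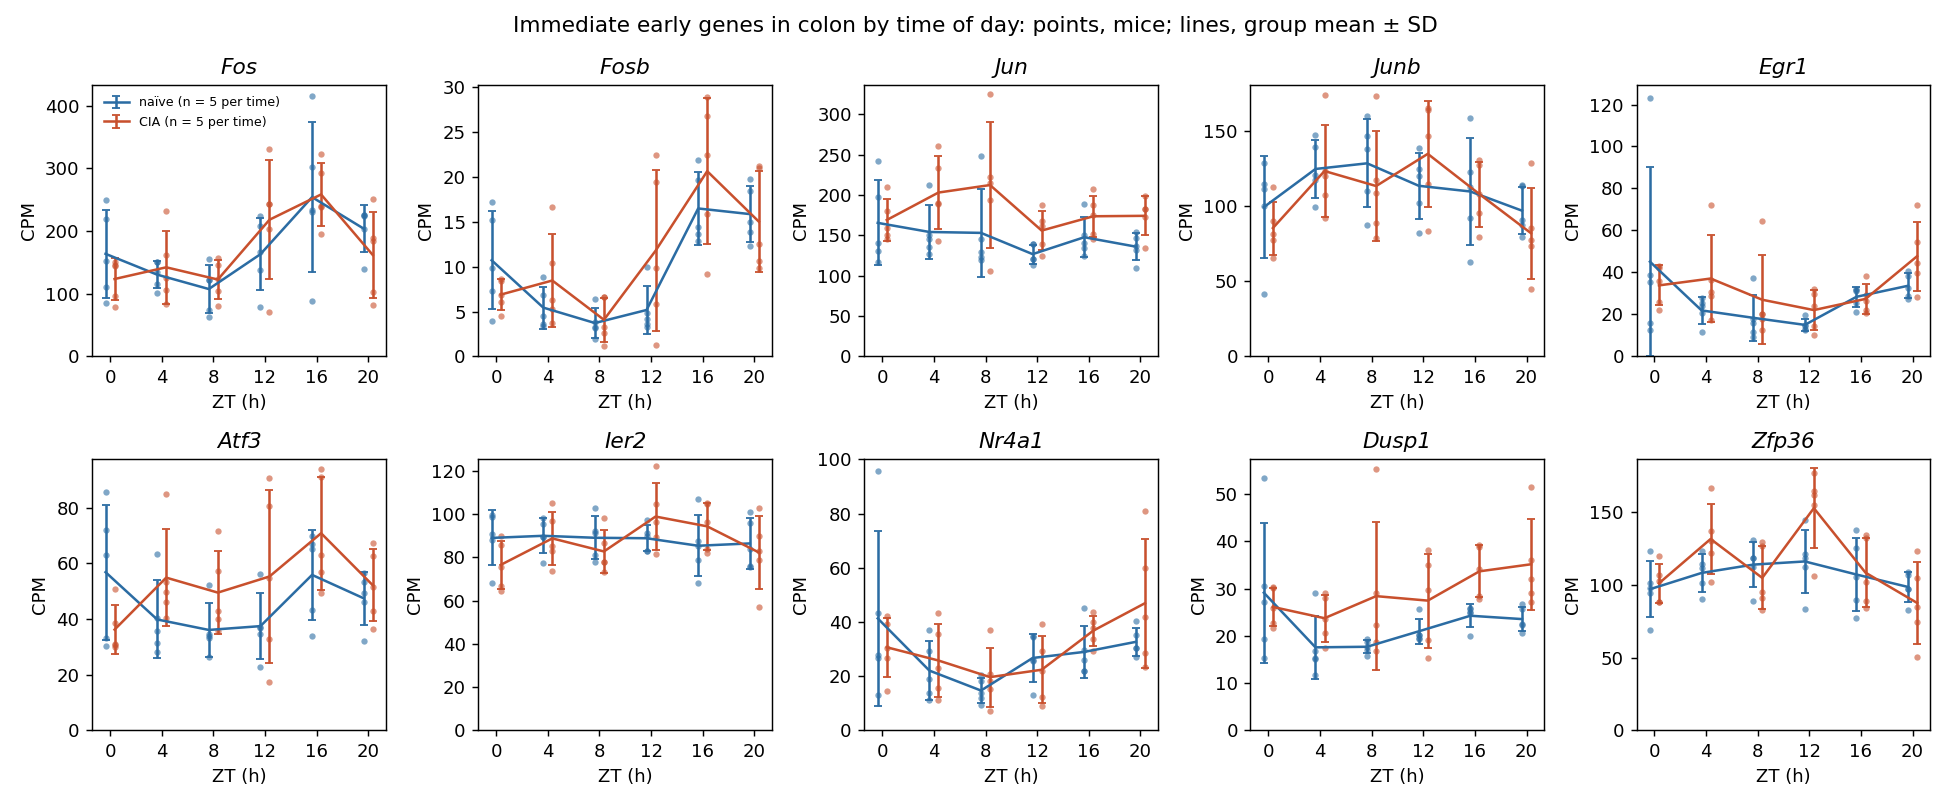
Level of each of the 10 genes (CPM, linear axis) against ZT in hours, for naïve (blue) and CIA (orange) mice; points are mice, and lines join group means with SD bars (n = 5). Fosb and Fos sat highest at ZT16 in both treatments, while Ier2 stayed between 57.1 and 122 CPM.

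Fos also had its lowest mean at ZT8 and its highest at ZT16 in both treatments. In naïve mice the values were 122, 63.2, 123, 156 and 73.7 CPM at ZT8 and 231, 234, 415, 88.1 and 302 CPM at ZT16, so that replicate 4 of ZT16 lay within the ZT8 range. In CIA mice they were 158, 124, 147, 104 and 81.2 CPM at ZT8 and 196, 239, 241, 293 and 324 CPM at ZT16, with no overlap. The means rose from 108 ± 38.5 to 254 ± 119 CPM in naïve and from 123 ± 31.1 to 258 ± 50.1 CPM in CIA mice, folds of 2.36 and 2.11 (adjusted p = 0.0385 and 0.0345). These calls were close to the threshold, and both were lost by voom (adjusted p = 0.0755 in naïve and 0.0712 in CIA mice) and with the replicate number as a block (0.0619 and 0.0513). In naïve mice the call was lost without any 1 of 8 libraries, ZT4 replicate 4, ZT8 replicates 1, 2 and 5 and ZT16 replicates 1, 2, 3 and 5, with adjusted p from 0.0517 to 0.131. In CIA mice it was lost without any 1 of 9, ZT0 replicates 1 and 2, ZT8 replicates 4 and 5, ZT12 replicates 1, 3 and 5 and ZT16 replicates 4 and 5, with adjusted p from 0.0512 to 0.0815.

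Egr1 differed between times in naïve mice (adjusted p = 0.0214), with the lowest mean at ZT12, where the values were 14.3, 19.6, 12.1, 12.9 and 14.7 CPM. The lowest single value, 8.99 CPM, was that of naïve ZT8 replicate 5. At ZT0 the values were 38.6, 15.4, 35.1, 12.3 and 123 CPM, a spread that took in 4 of the 5 ZT12 values, and the call was lost without naïve ZT0 replicate 5 (adjusted p = 0.103) and by voom (adjusted p = 0.138). At ZT20 the naïve values were 38.1, 32.5, 27.2, 40.6 and 28.5 CPM, all above ZT12. In CIA mice Egr1 did not pass the test (adjusted p = 0.275), with the highest mean at ZT20, 47.5 ± 16.5 CPM, and the lowest at ZT12, 21.8 ± 9.63 CPM.

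Zfp36 differed between times in CIA mice (adjusted p = 0.0051) and did not pass the test in naïve mice (adjusted p = 0.758). In CIA mice it read 164, 106, 177, 155 and 162 CPM at ZT12 and 123, 74.7, 85.0, 50.0 and 105 CPM at ZT20. Replicate 2 at ZT12 was the low mouse and lay within the ZT20 range, while the other 4 lay above it. The means were 153 ± 27.5 and 87.5 ± 28.03 CPM, a fold of 1.74, whereas the naïve means ran from 97.0 ± 19.3 CPM at ZT0 to 116 ± 21.9 CPM at ZT12. The difference between the treatments in this course did not pass the test of the interaction (unadjusted p = 0.180, adjusted p = 0.965).

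In all, 3 of the 10 genes passed the test for time of day in naïve mice, Fosb, Egr1 and Fos, against 22.2% of all genes tested, and 3 in CIA mice, Fosb, Zfp36 and Fos, against 19.8%. The counts are too small to set the list apart from those shares. With the naïve ZT0 replicate 5 and CIA ZT12 replicate 2 libraries left out together, 5 passed in CIA mice, with Junb (adjusted p = 0.0194) and Nr4a1 (adjusted p = 0.0311) added. Naïve counts of 5 were reached without ZT0 replicate 4 or without ZT4 replicate 3, where Nr4a1 and Dusp1 also passed.

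A 24 h cosine fit placed the peaks in the dark phase for most of the genes that passed. In naïve mice 4 genes passed (limma, adjusted over 18057 genes), against 36.9% of all genes. Fosb had a fitted amplitude of 1.17 (log2 CPM, mean to peak) with a peak at ZT 19.4, Egr1 0.64 at ZT 21.2, Nr4a1 0.54 at ZT 19.8 and Fos 0.52 at ZT 18.2, with adjusted p of 3.66e-05, 0.00529, 0.0249 and 0.00996. The median fitted amplitude over all genes was 0.18 in naïve and 0.15 in CIA mice. In CIA mice 6 genes passed, against 29.7%, namely Fosb (0.99, ZT 18.1), Nr4a1 (0.64, ZT 19.8), Egr1 (0.50, ZT 22.4), Fos (0.49, ZT 15.1), Junb (0.33, ZT 9.57) and Zfp36 (0.26, ZT 9.28). Junb and Zfp36 thus had fitted peaks late in the light phase, and the other 4 in the dark. The adjusted p in CIA mice were 5.77e-04 for Fosb, 0.00816 for Nr4a1, 0.0404 for Egr1, 0.0172 for Fos, 0.0285 for Junb and 0.0278 for Zfp36.

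The rhythm calls of Fosb and Fos in both treatments, Egr1 in naïve and Nr4a1 in CIA mice held without any 1 library, and those of Egr1, Junb and Zfp36 in CIA mice and Nr4a1 in naïve mice did not. Egr1 lost its CIA call without any 1 of 12 CIA libraries, ZT0 replicates 1 and 4, ZT8 replicates 1, 3, 4 and 5, ZT12 replicates 4 and 5 and ZT20 replicates 1, 2, 3 and 4, with adjusted p up to 0.103, and with the same terms fitted by edgeR (adjusted p = 0.104). Junb lost it without ZT0 replicate 1, ZT8 replicate 4, ZT12 replicates 1 or 3 or ZT20 replicate 4, with adjusted p up to 0.0890. Zfp36 lost it without ZT12 replicates 1, 3, 4 or 5 or ZT20 replicates 2 or 4, with adjusted p up to 0.103, so that 3 genes passed in CIA mice without CIA ZT20 replicate 4. Nr4a1 lost its naïve call without ZT8 replicates 1 or 5, with adjusted p up to 0.0700. Dusp1 missed the threshold in both treatments, with adjusted p of 0.0541 in naïve mice, where its fitted amplitude was 0.29 with a peak at ZT 19.3, and 0.0913 in CIA mice (0.27, ZT 17.8). Its naïve value passed without any 1 of 8 libraries, CIA ZT8 replicate 2, CIA ZT12 replicate 4, CIA ZT20 replicate 2, naïve ZT0 replicates 4 and 5, naïve ZT4 replicate 3, naïve ZT16 replicate 5 and naïve ZT20 replicate 2, and its CIA value passed without CIA ZT8 replicate 2 (adjusted p = 0.0105). Ier2 missed it in CIA mice (adjusted p = 0.0690) and passed without any 1 of 6 CIA libraries, ZT0 replicate 3, ZT4 replicates 2 and 4, ZT8 replicate 1, ZT12 replicate 2 and ZT20 replicate 1, with adjusted p from 0.0307 to 0.0474. With naïve ZT0 replicate 5 and CIA ZT12 replicate 2 left out together, 5 genes passed in naïve mice, with Dusp1 added. In CIA mice 8 passed without that pair, with Ier2 and Dusp1 added. Of all 18153 genes then tested, 7329 passed in naïve and 5700 in CIA mice.

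No difference in rhythm between CIA and naïve mice passed the test for any of the 10 genes. The edgeR test of the cosine and sine terms called 0 of them, against 0.0222% of all genes (4 of 18057). At an unadjusted p under 0.05 there were 0 of the 10, against 1176 of all genes. By DESeq2 and by limma voom 0 were also called, with 1 at an unadjusted p under 0.05 by DESeq2. Without both ZT4 replicate 4 libraries 3 of the 10 had an unadjusted p under 0.05, and without naïve ZT0 replicate 5 and CIA ZT12 replicate 2 it was 1, with 0 called in either case. The shares of all genes at that unadjusted level were not computed for DESeq2 or for these libraries left out. These counts of the 10 thus have no background to be set against. With all libraries the smallest p was that of Atf3 (0.0533 unadjusted, 0.731 adjusted), whose fitted peak lay at ZT 20.2 in naïve and ZT 14.4 in CIA mice, with neither rhythm passing its own test. By the selection among 5 models (Schwarz weight of at least 0.6), Fos, Fosb, Junb, Egr1, Nr4a1 and Dusp1 fell in the class with 1 rhythm for both treatments, Jun and Atf3 in the class with no rhythm, and Ier2 and Zfp36 in no class. Of all genes 34.7% fell in the first class and 35.7% in the second.

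Jun and Dusp1 were higher in CIA mice when the 6 times were pooled, with 30 mice in each treatment. Jun ran from 110 to 248 CPM in naïve mice, with a median of 138, and from 106 to 325 CPM in CIA mice, with a median of 182. The ranges overlapped almost whole, and the log2 fold change was 0.30 ± 0.08 (SE, adjusted p = 0.0028). Its CIA mean was the higher one at 6 of 6 times. Dusp1 ran from 11.7 to 53.4 CPM in naïve mice, with a median of 20.1, and from 15.2 to 55.3 CPM in CIA mice, with a median of 28.7. Its log2 fold change was 0.39 ± 0.11 (SE, adjusted p = 0.0043), with the CIA mean higher at 5 of 6 times and lower at ZT0. Both calls held without any 1 of the 60 libraries, with log2 fold changes of 0.26 to 0.35 for Jun and 0.34 to 0.46 for Dusp1.

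These 2 of 10 genes stood against 17.6% of all genes called higher in CIA mice, and 0 of 10 against 20.4% called lower. In either direction it was 2 of 10 against 38%. As for time of day, the counts are too small to set the list apart from those shares. The 10 log2 fold changes had a median of 0.18, against -0.02 over all genes, and 8 of the 10 were above 0. The other 8 genes did not pass, with log2 fold changes of 0.27 ± 0.20 for Egr1, 0.22 ± 0.13 for Atf3, 0.22 ± 0.26 for Fosb, 0.13 ± 0.19 for Nr4a1, 0.10 ± 0.08 for Zfp36, 0.01 ± 0.16 for Fos, -0.01 ± 0.05 for Ier2 and -0.06 ± 0.11 for Junb. Egr1 passed without naïve ZT0 replicate 5, its highest library (log2 fold change 0.46, adjusted p = 0.0277). Without the pair of that library and CIA ZT12 replicate 2 it was 0.47 (adjusted p = 0.0262).

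Marker mRNAs of several cell types also differed between the treatments. Whether the make-up of the sections differed, or had a part in the values of Jun and Dusp1, was not tested. Of the smooth muscle list, 12 of 12 genes were higher in CIA mice with a median log2 fold change of 0.68, and its mean log2 CPM ran from 8.68 to 10.9 in naïve and from 9.48 to 11.2 in CIA mice. Acta2, its actin, averaged 1989 ± 531 CPM in naïve and 3151 ± 794 CPM in CIA mice, and none of the 12 was at 0 in any library. When the mean level of that list was added to the model, the difference fell to 0.13 for Jun (adjusted p = 0.443) and 0.31 for Dusp1 (adjusted p = 0.186), and neither passed, while the genes called over the whole table went from 6860 to 1085. Of the other lists, 9 of 10 enteric neuron, 4 of 4 glial, 4 of 5 mesothelial, 5 of 8 skeletal muscle and 3 of 3 erythrocyte genes were higher, and 6 of 6 macrophage, 4 of 5 plasma cell, 3 of 5 T cell and 3 of 9 epithelial genes were lower. No fibroblast (5), endothelial (5), B cell (5) or core clock gene (11) passed for treatment (edgeR). In the neutrophil list 1 gene was higher and 1 lower of 4, in the heat shock list 1 higher and 2 lower of 9, and in the glucocorticoid-induced list 2 higher and 0 lower of 7.

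**Figure D2:**
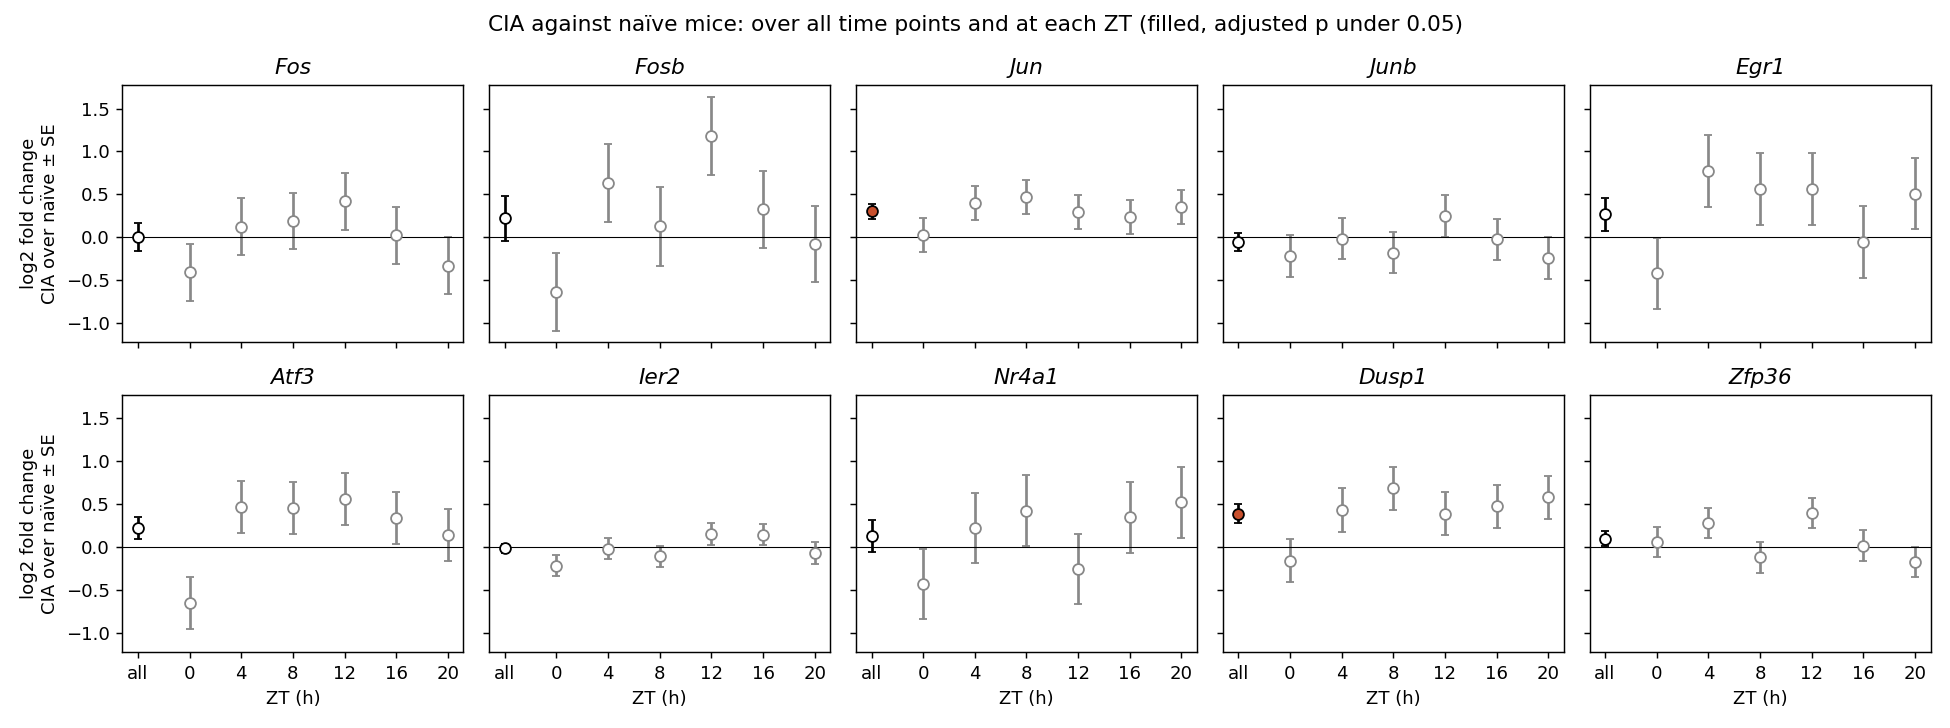
Fitted log2 fold change of CIA over naïve mice with SE for each gene, over all times ("all", 30 against 30 mice) and at each ZT (5 against 5); filled points passed an adjusted p of 0.05. The filled points are those of Jun (0.30) and Dusp1 (0.39) over all times, and no point at a single ZT is filled.

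At single times of day 0 of the 10 genes passed at any of the 6 times by edgeR. The shares of all genes called were 0.0222% at ZT0, 0.858% at ZT4, 0.0332% at ZT8, 9.28% at ZT12, 0.00554% at ZT16 and 13% at ZT20. The ZT4 share depended on the 2 replicate 4 libraries whose clock genes went against their labels. Without both, 1969 of 18146 genes were called at ZT4, against 155 with them, and still 0 of the 10. With all libraries, 1, 1, 2, 2, 0 and 1 of the 10 had an unadjusted p under 0.05 at the 6 times. Of the 18057 genes, 3316, 3536, 1149, 4565, 1952 and 5393 did. By voom 0 of the 10 passed. By DESeq2 1 passed, Fosb at ZT12, where DESeq2 called 2150 genes of the table and edgeR 1675. The lowest adjusted p were those of Fosb at ZT12, given below, and Dusp1 at ZT20, where the naïve mice read 22.4, 20.5, 22.3, 26.8 and 25.6 CPM and the CIA mice 27.2, 51.4, 36.1, 31.9 and 29.1 CPM. All 5 CIA mice were above all 5 naïve mice there, and at ZT16 too. At ZT16 naïve mice ran from 19.9 to 25.8 and CIA mice from 27.7 to 39.3 CPM. None of the other genes of the list separated in this way at any time, and the share of all genes that did was not computed. The log2 fold changes were 0.58 ± 0.25 at ZT20 (adjusted p = 0.112) and 0.47 ± 0.25 at ZT16 (adjusted p = 0.507), and with the 10 ZT20 libraries fitted alone Dusp1 passed (adjusted p = 0.0385).

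Fosb had the largest fitted difference at a single time, at ZT12. The naïve mice read 4.19, 9.92, 3.64, 3.27 and 4.85 CPM and the CIA mice 19.4, 9.84, 22.4, 1.32 and 5.84 CPM, so the CIA mice lay both above and below the naïve ones. The log2 fold change was 1.18 ± 0.46 (adjusted p = 0.0883). It passed by DESeq2 (adjusted p = 0.0481), without CIA ZT12 replicate 4 (1.47, adjusted p = 0.0381) and without naïve ZT12 replicate 2 (1.57, adjusted p = 0.0366). At ZT0 the sign was negative for 8 of the 10 genes, with Atf3 at -0.65 ± 0.30 (adjusted p = 0.236), and at ZT12 positive for 9 of 10.

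The treatment effect did not pass a test of differing between times for any of the 10 genes. The interaction called 0 genes of the whole table by edgeR, that is 0%, with 817 at an unadjusted p under 0.05, none of them among the 10. By voom 0 genes and by DESeq2 2 genes of the table were called, none of them among the 10. The sign changes between ZT0 and later times are therefore given as values only.

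The spread between mice of one group was wider in these genes than in the typical gene. The SD of log2 CPM between mice of the same treatment and time had a median of 0.45 over the 10 genes, against 0.28 over all genes. Fosb (0.78), Nr4a1 (0.68) and Egr1 (0.66) were widest, at the 86.9, 82.5 and 81.6 percentiles of all genes, and Ier2 was narrowest (0.20, percentile 35.8). Jun, at 0.32, and Zfp36, at 0.29, were near the middle, at percentiles 54.4 and 50.9. None of the 10 was above the 90th percentile.

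**Figure D3:**
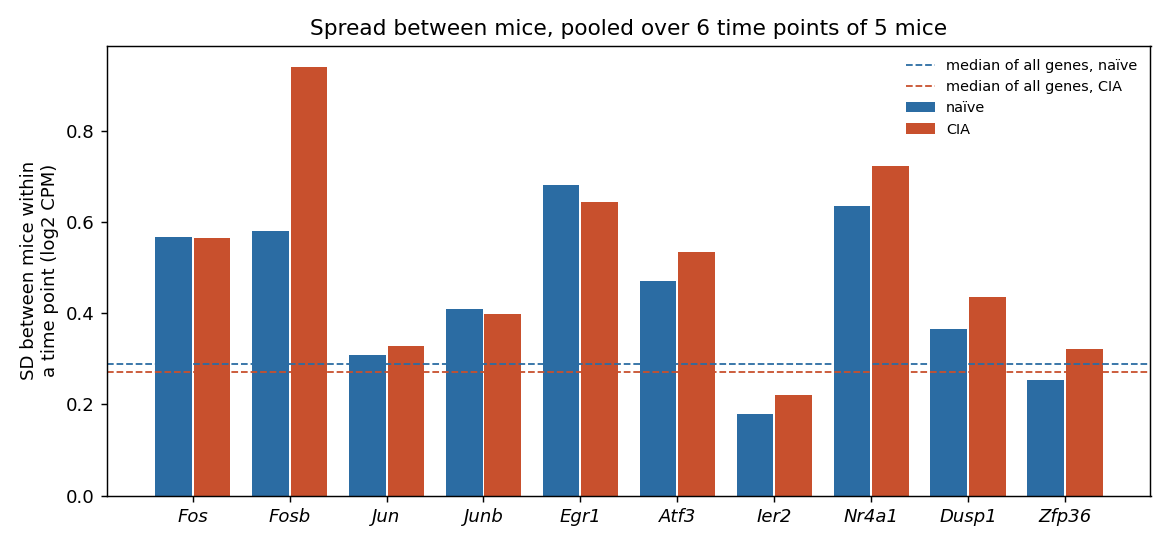
SD between mice within a time point (log2 CPM, pooled over 6 groups of 5) for each gene in naïve (blue) and CIA (orange) mice; dashed lines give the median over all genes. The tallest bar was that of Fosb in CIA mice (0.94, against 0.58 in naïve mice), and the lowest pair that of Ier2 (0.18 and 0.22).

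The SD was larger in CIA than in naïve mice for 7 of the 10 genes, against 36.8% of all genes, but no gene passed the test of the spread. For Fosb it was 0.58 in naïve and 0.94 in CIA mice, a ratio of 1.62. The limma test on absolute deviations called 0 of the 10, and 0% of all genes, with Fosb at an unadjusted p of 0.0279 and an adjusted p of 0.448. It was the sole one of the 10 at an unadjusted p under 0.05, against 1796 of all genes, and with deviations taken from the group median none of the 10 was. The median SD of the 10 genes was widest in naïve ZT0 (0.67) and CIA ZT12 (0.65) and narrowest in naïve ZT20 (0.23). In CIA ZT12, replicates 1 and 3 read 19.4 and 22.4 CPM for Fosb and 80.8 and 90.7 for Atf3, while replicate 4 read 1.32 and 17.4.

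The same mice tended to be high or low for several of the genes. Each mouse's deviation from the mean of its group was taken on the log2 CPM scale. The highest mean deviations over the 10 genes were those of CIA ZT4 replicate 4 (0.57, 10 of 10 genes above the group mean), CIA ZT12 replicate 3 (0.55, 9 of 10) and CIA ZT8 replicate 2 (0.52, 7 of 10). The lowest were CIA ZT12 replicate 4 (-0.85, 1 of 10 above) and naïve ZT0 replicate 4 (-0.56, 3 of 10). In 6 libraries 9 or 10 of the genes were above the group mean, 4 CIA and 2 naïve, and in 5 libraries 0 or 1 were, 4 CIA and 1 naïve. The first of these, CIA ZT4 replicate 4, is one of the libraries whose clock genes went against their label.

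Pairs of the genes followed each other closely, but not as a single group. Over the 60 deviations, which share libraries and scaling, 31 of the 45 pairs had a positive Pearson r, with a median of 0.37, a highest of 0.83 and a lowest of -0.62. These values are a description, with no test. The closest pairs were Junb and Ier2 (r = 0.83, Spearman's rho 0.81), Junb and Zfp36 (0.82, rho 0.80), Fosb and Atf3 (0.81, rho 0.78), Egr1 and Dusp1 (0.81, rho 0.71), Ier2 and Zfp36 (0.77, rho 0.72) and Nr4a1 and Dusp1 (0.72, rho 0.64). Without the 2 mice farthest from the median of the first gene, r stayed at 0.80, 0.80, 0.75, 0.73, 0.71 and 0.65. Within treatments Junb and Ier2 gave 0.83 in naïve and 0.84 in CIA mice, and Fosb and Atf3 gave 0.68 and 0.90. Among all genes tested, Atf3 ranked 1 for Fosb and Fosb ranked 1 for Atf3, and the same held for Egr1 and Dusp1. Junb ranked 1 for Ier2 and for Zfp36, but Ier2 ranked 17 and Zfp36 25 for Junb.

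**Figure D4:**
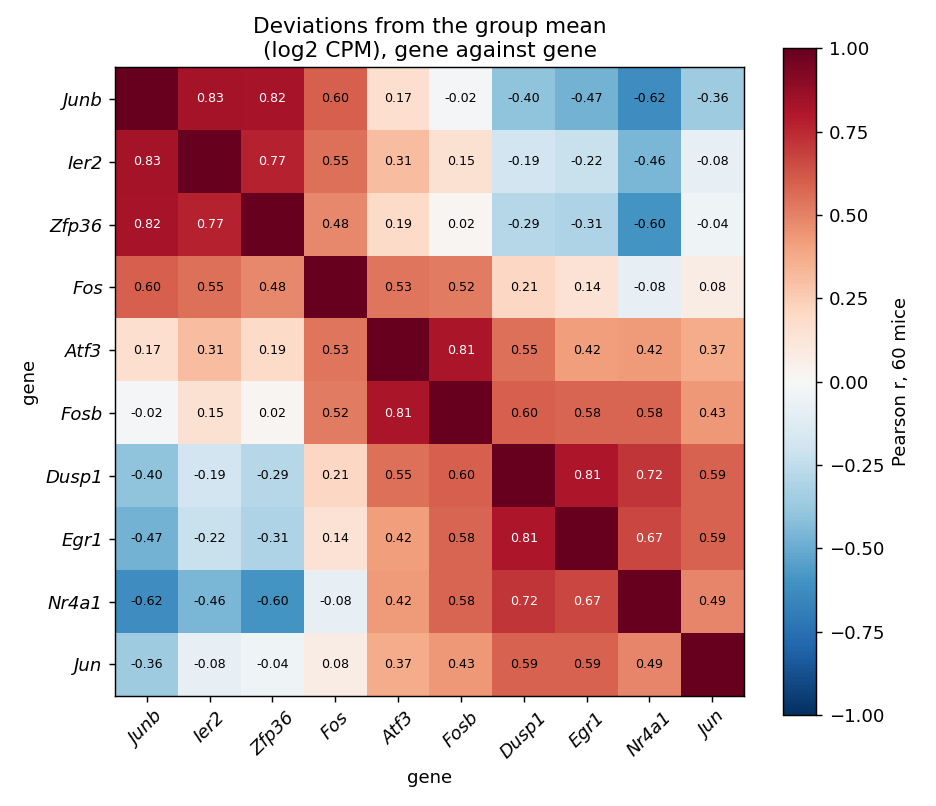
Pearson r between deviations of each pair of the 10 genes over 60 mice, with genes ordered by eye so that like genes are side by side; red is positive and blue negative. Junb, Ier2 and Zfp36 form one red corner (0.77 to 0.83) and Dusp1, Egr1, Nr4a1 and Jun another (0.49 to 0.81), with negative values between the corners, down to -0.62.

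Of the 14 negative pairs, 12 ran between those 2 sets, and the others were Fosb with Junb (-0.022) and Fos with Nr4a1 (-0.084). The sets were drawn by eye from these same r values, so the count of 12 follows from that choice and is no separate evidence for the sets. Junb and Nr4a1 gave r = -0.62, Nr4a1 and Zfp36 -0.60, Junb and Egr1 -0.47 and Ier2 and Nr4a1 -0.46. In naïve ZT0 replicate 5, for example, Junb (41.5 CPM) and Zfp36 (68.9 CPM) were the lowest of their 5 mice while Egr1 (123 CPM), Nr4a1 (95.9 CPM) and Dusp1 (53.4 CPM) were the highest. CIA ZT20 replicate 4 showed the same for 1 gene of the second set, with Junb at 44.7 and Zfp36 at 50.0 CPM, each the lowest of its 5 mice, and Nr4a1 at 81.1 CPM, the highest. Fos went with Junb (0.60) and with Atf3 (0.53), and had r = 0.14 with Egr1. Among all genes tested, however, Junb ranked 132 and Atf3 360 for Fos, and Fos ranked 1271 for Junb.

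**Figure D5:**
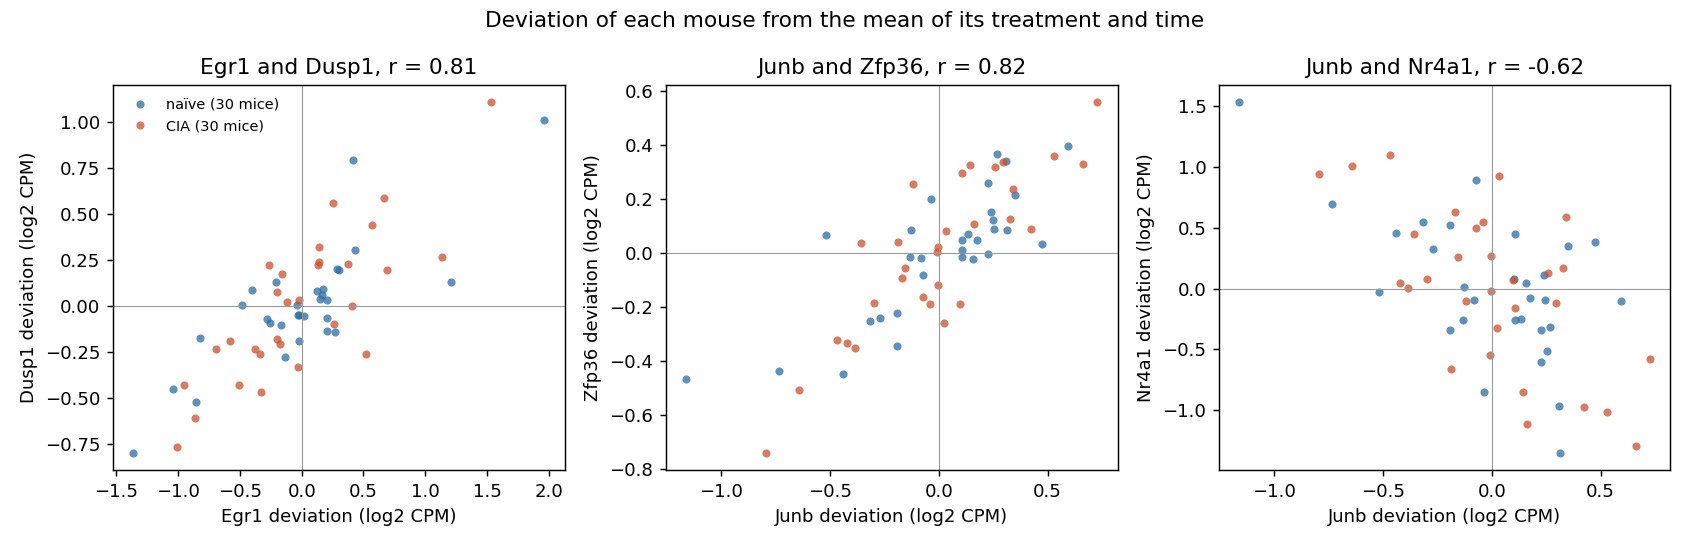
Deviation of each mouse from its group mean (log2 CPM) for Egr1 against Dusp1, Junb against Zfp36 and Junb against Nr4a1; blue, 30 naïve mice; orange, 30 CIA mice. The first pairs rise together (r = 0.81 and 0.82) and the last falls (r = -0.62), with mice of both treatments along each slope.

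Markers of other cells and states moved with these deviations, and their part in the likeness was not tested. The mean deviation of the 4 genes of the neutrophil list gave r = 0.70 with Junb, 0.67 with Ier2, 0.69 with Zfp36 and -0.51 with Nr4a1. S100a8, one of its defining genes, was at 0 in 11 of 60 libraries and never above 0.785 CPM, whereas Ly6g, on the same list, ran from 0.279 to 108 CPM. The fibroblast list gave -0.54 with Junb and 0.40 with Nr4a1, the endothelial list -0.60 with Zfp36 and 0.50 with Nr4a1, and the glial list -0.54 with Junb and 0.36 with Jun. The smooth muscle list gave 0.41 with Jun and 0.18 with Dusp1. The core clock list gave 0.45 with Junb, 0.41 with Zfp36 and 0.31 with Ier2. It gave -0.49 with Egr1, -0.45 with Dusp1, -0.36 with Nr4a1 and -0.18 with Jun. The list of the growth factor pathway described below gave 0.62 with Junb and -0.43 with Nr4a1. With the mean deviation of all 10 genes, smooth muscle gave 0.04, the epithelial list 0.38 (0.10 in naïve, 0.58 in CIA mice), the plasma cell list 0.25 (-0.12 and 0.55), the heat shock list 0.40 (0.29 and 0.57) and the log2 library total 0.06.

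The gene most like each of the 10 outside the list was named by the highest Pearson r of deviations over the 60 mice. It was Id1, an inhibitor of helix-loop-helix factors, for Fos (0.83), Vasp, an actin regulator, for Junb (0.86), Elf3, an epithelial ETS factor, for Zfp36 (0.81) and Ptpn18 for Ier2 (0.79). Hbegf, a growth factor of the EGF family, was the nearest to both Fosb (0.73) and Atf3 (0.71). For Nr4a1 it was Dusp8, a MAP kinase phosphatase (0.74), for Jun the cytochrome P450 gene Cyp3a13 (0.74), for Dusp1 the matricellular gene Ccn1 (0.62) and for Egr1 the mitochondrial carrier homologue Mtch2 (0.58). In Egr1, 3 genes of the list stood above Mtch2, and in Dusp1 2 stood above Ccn1.

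The mean deviation of the 10 genes was followed most closely by Hbegf (r = 0.80), and then by Errfi1, an inhibitor of the EGF receptor (0.70), the pseudokinase gene Trib1 (0.68), Sfn (0.67) and Dusp6, a phosphatase of ERK (0.63). The next were an unnamed gene (0.62), Areg, another growth factor of the EGF family (0.62), Zdhhc18 (0.61), Ccdc71l (0.60) and Tppp (0.60). Hbegf gave 0.74 in naïve and 0.84 in CIA mice, and 0.73 without the 2 farthest mice. Of these 10, Hbegf, Errfi1, Trib1 and Dusp6 were on the lists of other immediate early genes described next.

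Of the other immediate early genes, 54 of 56 were tested, Egr4 and Il6 being too low. For treatment 10 were higher and 6 lower in CIA mice, 29.6% in all, against the 38% of all genes given above. By class, 2 transcription factor genes were higher and 1 lower of 19, 5 feedback genes higher and 2 lower of 22, and 3 effector genes higher and 3 lower of 13. Jund, the third Jun protein of AP-1, was among those higher, at 372 ± 55.1 CPM in naïve and 460 ± 92.3 CPM in CIA mice (log2 fold change 0.31 ± 0.07, adjusted p = 1.98e-04). Myc, a growth regulator, was lower, at 24.1 ± 5.23 and 18.8 ± 4.13 CPM (-0.36 ± 0.08, adjusted p = 2.87e-04), and so was Zfp36l2, a relative of Zfp36, at 132 ± 33.9 and 104 ± 19.6 CPM (-0.34 ± 0.09, adjusted p = 0.00133).

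For time of day 15 of these 54 genes passed in naïve mice, 27.8%, and 20 in CIA mice, 37%, against 22.2% and 19.8% of all genes. Hbegf had its highest naïve mean at ZT20, 45.6 CPM, and its lowest at ZT8, 15.1 CPM (adjusted p = 6.65e-05), and Ier5, an immediate early response gene, ran from 42.8 CPM at ZT12 to 73.4 CPM at ZT20 (adjusted p = 7.72e-05). In CIA mice Hbegf was highest at ZT16, 57.7 CPM, and lowest at ZT8, 20.3 CPM. The trough at ZT8 was thus shared by Hbegf, Fos, Fosb and Nr4a1 in both treatments, as the group means stood.

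Upstream of these genes, 11 of the 39 genes of the growth factor, MAP kinase and SRF pathway passed for treatment, 8 higher and 3 lower in CIA mice, against 38% of all genes (17.6% higher and 20.4% lower). Srf, whose product binds the CArG box, stood at 107 ± 14.4 CPM in naïve and 136 ± 18.1 CPM in CIA mice (log2 fold change 0.35 ± 0.05, adjusted p = 4.61e-07). Mapk8, the kinase JNK1 that phosphorylates Jun, stood at 34.3 ± 2.64 and 38.01 ± 3.16 CPM (0.15 ± 0.03, adjusted p = 1.24e-04), and Rps6ka1, a kinase below ERK, was lower, at 255 ± 28.6 and 218 ± 36.1 CPM (-0.22 ± 0.05, adjusted p = 6.11e-04). For time of day 10 passed in naïve and 13 in CIA mice, against 22.2% and 19.8% of all genes. Erbb2, a receptor of the EGF receptor family, ran from 154 CPM at ZT20 to 247 CPM at ZT8 in naïve mice (adjusted p = 3.95e-05), the reverse of Hbegf in its highest and lowest times.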

How the data were processed

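Mid-colon mRNA of 60 mice, 1 library each, was sequenced as stranded paired-end libraries by the authors, who used bcl2fastq 2.17.1.14, Trimmomatic 0.36 and STAR 2.5.3 with mm10 (GRCm38) and counted reads per gene with Rsubread. The values used here are the deposited raw counts per Entrez gene. Low counts were mostly even (74.0% of those from 1 to 20), so counts were also halved as an alternative. Identifiers were matched to symbols with RefSeq (25275) and GENCODE (18), and 1886 stayed unnamed, with 0.528% of counts. CPM were computed with TMM scaling.

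Groups came from the labels. Genes kept by filterByExpr over 12 groups (18057) were tested with the quasi-likelihood F test of edgeR 4.0.16 for treatment, with all 60 libraries and no other term, and over the 12 groups for single times, time of day and interaction. Rhythms (24 h) and the spread between mice (absolute deviations from the group mean) were tested with limma 3.58.1 on log2 CPM with a prior count of 2, in R 4.3.3. Benjamini-Hochberg adjustment was over all genes, with a threshold of 0.05. Scripts were tested on simulated counts. All 10 members of the list were named, and of other immediate early and upstream genes the 3 of smallest p in each direction for treatment, the 3 for time in naïve mice, and the most like genes. The members and lists were chosen with earlier results of these data known. Alternatives were DESeq2 1.42.0, voom, other scaling and filters, covariates, blocks and leaving libraries out. Replicate numbers are not stated to pair mice. Replicates were separate mice, no 2 libraries held the same values, and exon lengths were those of GENCODE for the GRCm38 build.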

Additional observations from a re-analysis of the deposited data

Results flagged for a closer look

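In 6 of the 120 groups of 5 mice (10 genes by 12 groups), 1 mouse stood apart from the other 4 by more than Dixon's 95% limit on the log2 CPM scale. Chance alone flags about 1 in 20 groups, which is the share found. Fos was low in naïve ZT20 replicate 3, at 140 CPM against 203 to 226. Jun was high in naïve ZT8 replicate 2, at 248 CPM against 120 to 145. Junb was low in naïve ZT0 replicate 5, at 41.5 CPM against 99.9 to 129. Dusp1 was high in naïve ZT12 replicate 2, at 25.7 CPM against 19.4 to 20.1, and low in naïve ZT16 replicate 5, at 19.9 CPM against 24.7 to 25.8. Zfp36 was low in CIA ZT12 replicate 2, at 106 CPM against 155 to 177.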

How the results depend on the processing

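Fosb by time of day in both treatments, and Zfp36 in CIA mice, passed under every alternative run for that test. With 1 library left out at a time, 2 to 3 genes were higher in CIA mice and 0 lower, 0 to 1 passed at single times, 2 to 5 by time in naïve and 2 to 4 in CIA mice, and 3 to 5 and 3 to 7 for a 24 h rhythm, while interaction, difference in rhythm and spread stayed at 0. Once the smooth muscle score entered the model, none (0) of them was higher in CIA mice. With each time point fitted alone, and by DESeq2, 1 passed at a single time. By voom 1 passed by time in naïve mice. Without naïve ZT0 replicate 5 and CIA ZT12 replicate 2, 5 passed by time in CIA mice. For a 24 h rhythm, 5 then passed in naïve and 8 in CIA mice. Log2 fold changes that changed sign were not called under either setting. That of Fos was -0.0054 with library totals alone, -1.1e-04 with the replicate block of 30 pairs, and -0.023, -0.028 and -0.0098 without the pairs naïve and CIA ZT4 replicate 4, naïve ZT0 replicate 5 with CIA ZT12 replicate 2, and naïve ZT4 replicate 5 with naïve ZT12 replicate 3. With the smooth muscle score in the model Junb was 0.14, Ier2 0.10 and Nr4a1 -0.0066, and with genes of at least 5 CPM on average Ier2 was 0.019. Leaving out 1 library at a time gave -0.032 to 0.079 for Fos and -0.034 to 0.017 for Ier2. The causes were not tested.

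Of the 30 same-numbered pairs, 8 had deviations correlated above 0.1 (range -0.47 to 0.45, median -0.04) and 5 correlated best with their own number. These values cannot settle whether replicate numbers pair the mice, since paired mice need not have correlated deviations. With the replicate block of 30 pairs 2 genes stayed higher in CIA mice. With the replicate number as a block 2 passed by time in each treatment, where the adjusted p of Fos was 0.0619 (naïve) and 0.0513 (CIA), and 4 and 6 passed for a rhythm. With halved counts, another scaling or no filter the number of the 10 genes called for treatment was 2.

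The lowest count of any of the 10 genes in a library was 54, for Fosb. With 5 mice per group, differences at single times had SE of 0.12 to 0.46 on the log2 scale.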
